A study of Aspergillus nidulans with 6 samples.

Results

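The genes described here encode receptors that sit at the cell surface and the G protein subunits that relay their signal in the filamentous fungus Aspergillus nidulans. They were taken by locus number and are 9 of the 10983 features counted: the receptor genes gprC (AN3765), gprD (AN3387), gprH (AN8262) and gprK (AN7795), the Gα genes fadA (AN0651), ganA (AN3090) and ganB (AN1016), the Gβ gene sfaD (AN0081) and the Gγ gene gpgA (AN2742). All 9 were present in the 6 count files, and all 9 passed the filter on low counts. RefSeq carries the symbols gprC, gprD, sfaD and gpgA for 4 of them and the alternative symbols gpaA (fadA) and gpaB (ganB) for another 2. It has no symbol for AN8262, AN7795 and AN3090, which are called gprH, gprK and ganA here by the rule that chose them.

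The libraries came from 3 samples of strain LO8158, genotype mcrA-, called mcrA-deleted here, and 3 samples of strain LO1362, genotype mcrA+, called WT. Both strains were grown in liquid glucose minimal medium at 37 °C for 1 day, so glucose was the supplied carbon source of all 6 cultures, and both received uridine, uracil, pyridoxine and riboflavin. No source used here lists the remaining alleles of either strain, and since each genotype is 1 strain, the deletion and any other strain difference cannot be told apart. The labels number the replicates but do not say whether they were separate cultures, so p-values reflect library-to-library spread that may be technical.

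A heterotrimeric G protein joins an α, a β and a γ subunit and couples to a receptor that spans the membrane. When a ligand binds the receptor, Gα exchanges GDP for GTP and separates from the Gβγ dimer, and both can act on enzymes such as adenylate cyclase until Gα hydrolyses the GTP. In A. nidulans the pathway links nutrient sensing to the choice between hyphal growth, sporulation and production of toxic metabolites: active FadA favours growth and restrains conidiation and sterigmatocystin, GanB takes part in the germination response to carbon sources, and SfaD and GpgA form the βγ dimer. GprC and GprD resemble the yeast glucose receptor Gpr1, GprH belongs to the class named for the cAMP receptors of Dictyostelium and has been tied to glucose sensing, and GprK carries a regulator of G protein signalling (RGS) domain, which speeds GTP hydrolysis.

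Total counts were 3374534 to 4926520 in the mcrA-deleted libraries and 4739323 to 6051839 in the WT libraries. Levels below are in CPM, counts per 1000000 counts, after trimmed-mean (TMM) scaling, fold changes are log2 values of mcrA-deleted over WT, and a gene counted as called where edgeR's quasi-likelihood test, adjusted over all 7852 tested features, gave an adjusted p below 0.05. The feature of mcrA itself, AN8694 by background knowledge, had 280, 422 and 273 counts in the mcrA-deleted libraries and 674, 903 and 655 in the WT libraries, so it was lower without being empty. WT replicate 3 stood apart on the second principal component (10.5% of the variance), and mcrA-deleted replicate 1 had 1.06% mitochondrial counts against at most 0.159% elsewhere. Called genes of the pathway are therefore also given without this pair of libraries.

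Of the 4 receptor genes, gprC and gprD fell, gprH rose and gprK was not called, while 0 of the 5 subunit genes were called by edgeR's quasi-likelihood test (2 had an unadjusted p under 0.05, and the DESeq2 Wald test called 1). The 3 calls stand against a background in which 29.8% of all tested features were called, 16.1% higher and 13.7% lower (1265 and 1078 features; 1660 and 639 with library size alone as the scaling). The libraries of the genotypes did not overlap in level for 3 of the 4 receptor genes and 3 of the 5 subunit genes, against 48.9% of all tested features. The median absolute log2 fold change was 1.85 over the 4 receptor genes and 0.26 over the 5 subunit genes, beside 0.41 over all tested features.

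**Figure D1:**
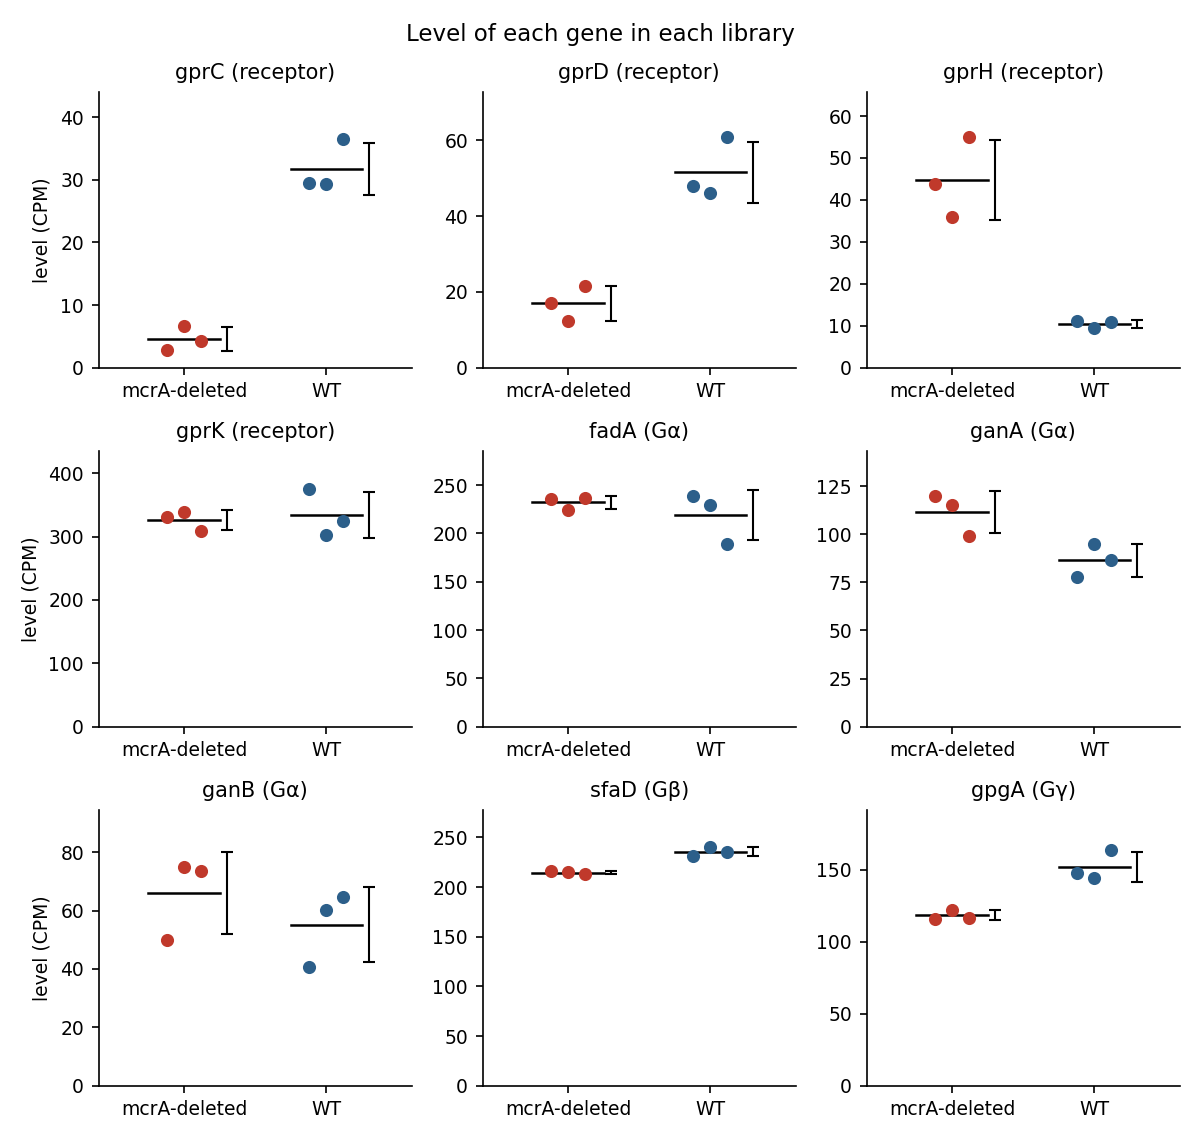
Level in CPM (y axis, from 0) of each of the 9 genes in the 3 mcrA-deleted (red) and 3 WT (blue) libraries; each point is 1 library, horizontal lines are means and error bars are SD. For gprC and gprD every mcrA-deleted point lies below every WT point, for gprH every mcrA-deleted point lies above, and the points of gprK, fadA and ganB overlap.

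The receptor gene gprC (chromosome II, 3127788 to 3129184, plus strand) was the most reduced of the 9. It had 10, 34 and 21 counts in mcrA-deleted replicates 1 to 3 and 135, 177 and 151 counts in WT replicates 1 to 3. As levels, these were 2.86, 6.63 and 4.30 CPM in the mcrA-deleted libraries and 29.4, 29.3 and 36.6 CPM in the WT libraries. The highest mcrA-deleted library thus stood well below the lowest WT library. The mean was 4.60 ± 1.90 CPM in mcrA-deleted and 31.8 ± 4.18 CPM in WT libraries (SD, n = 3 each), so that mcrA-deleted libraries held 14.5% of the WT level. The log2 fold change was -2.75 (SE 0.290, 95% interval -3.43 to -2.07), with an edgeR quasi-likelihood adjusted p = 0.00141. Among the 1078 features called lower, its fall was number 52 in size, and 4.57% of all tested features had a larger absolute change. The 10 counts in mcrA-deleted replicate 1 give that library the widest relative counting error of the 6.

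The second receptor of this kind, gprD, is known from A. nidulans as a negative regulator of sexual development. Its feature (chromosome VI, 876031 to 877586, plus strand) had 60, 63 and 105 counts in the mcrA-deleted libraries and 220, 278 and 251 counts in the WT libraries. The levels were 17.2, 12.3 and 21.5 CPM in mcrA-deleted replicates 1 to 3 against 48.0, 45.9 and 60.8 CPM in WT replicates 1 to 3. Here too the groups did not overlap, and the mcrA-deleted level of 17.0 ± 4.61 CPM was 32.9% of the WT level of 51.6 ± 8.06 CPM (SD, n = 3 each). On the log2 scale the change was -1.60 (SE 0.232, 95% interval -2.14 to -1.06; edgeR quasi-likelihood adjusted p = 0.00352). This was number 155 in size among the features called lower.

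The opposite was seen for gprH (chromosome II, 1316353 to 1317786, plus strand). It had 153, 184 and 268 counts in the mcrA-deleted libraries and 51, 57 and 45 counts in the WT libraries, although the WT libraries were deeper on average. The levels were 43.8, 35.9 and 54.9 CPM in mcrA-deleted replicates 1 to 3 and 11.1, 9.42 and 10.9 CPM in WT replicates 1 to 3. Every mcrA-deleted library lay above every WT library, and the WT libraries were close to each other. The means were 44.8 ± 9.55 CPM in mcrA-deleted and 10.5 ± 0.924 CPM in WT libraries (SD, n = 3 each), a 4.28-fold higher level (95% interval 3.08 to 5.95). As a log2 fold change this was 2.10 (SE 0.203; edgeR quasi-likelihood adjusted p = 0.00111), number 428 in size among the 1265 features called higher.

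The 3 receptor calls did not rest on a single library. Over 14 other settings, the log2 fold change lay between -3.11 and -2.42 for gprC, between -1.82 and -1.41 for gprD and between 1.92 and 2.28 for gprH, and each gene passed in all 14. With both WT replicate 3 and mcrA-deleted replicate 1 left out, the values were -2.42 for gprC, -1.47 for gprD and 2.15 for gprH. With 3 libraries a group, an exact two-sided permutation test of a single gene cannot go below p = 0.1, so the calls rely on the spread that edgeR pools over all features.

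The fourth receptor gene, gprK (chromosome IV, 2716173 to 2718420, plus strand), had the highest level per kilobase of the 4 receptor genes in every library. Its levels were 331, 338 and 309 CPM in the mcrA-deleted libraries and 375, 303 and 325 CPM in the WT libraries, and the groups overlapped. Its log2 fold change was -0.03 (SE 0.141), with a 95% interval of -0.36 to 0.29 (edgeR quasi-likelihood adjusted p = 0.876). Its last 81 bases overlap AN7796 on the minus strand, which had 8 counts over the mcrA-deleted libraries and 0 over the WT libraries, against 4403 and 4891 for gprK.

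**Figure D2:**
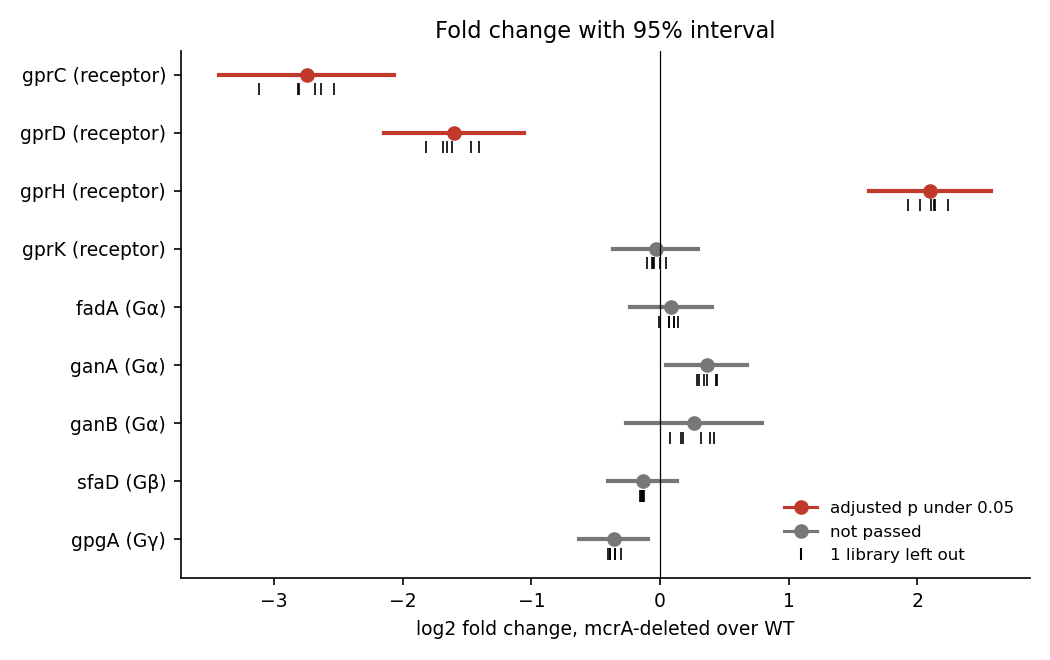
Log2 fold change of mcrA-deleted over WT (x axis) for the 9 genes, with 95% intervals as bars and, as ticks below each bar, the 6 values obtained with 1 library left out. The receptors gprC (-2.75), gprD (-1.60) and gprH (2.10) lie far from 0, while gprK and the 5 subunit genes lie between -0.36 and 0.36.

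The Gα genes came next. The gene fadA (chromosome VIII, 2883440 to 2885822, plus strand), for the Gα that favours vegetative growth, stood at 236, 224 and 236 CPM in the mcrA-deleted libraries and 239, 229 and 189 CPM in the WT libraries. The groups overlapped, with WT replicate 3 the lowest library. The fitted log2 fold change was 0.08 (95% interval -0.24 to 0.40; edgeR quasi-likelihood adjusted p = 0.678). The feature shares 496 bases with AN0650 on the minus strand, which had 643 counts over the mcrA-deleted and 574 over the WT libraries and was not called (0.31, SE 0.281). The libraries were strand-specific per the labels, but no source used here says whether counting used the strand, so the counts of fadA and gprK are uncertain to the extent of these overlaps.

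The Gα gene ganA (chromosome VI, 1874775 to 1878014, plus strand) had 120, 115 and 99.1 CPM in the mcrA-deleted libraries and 77.8, 95.03 and 86.7 CPM in the WT libraries. The groups did not overlap. The log2 fold change of 0.36 (SE 0.134, 95% interval 0.05 to 0.68) did not pass (edgeR quasi-likelihood adjusted p = 0.0779). It passed with library size alone as the scaling (0.53, edgeR quasi-likelihood adjusted p = 0.033; adjusted p from 0.033 to 0.23 over the 14 other settings).

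The third Gα gene, ganB (chromosome VIII, 1793440 to 1795415, plus strand), whose product acts in carbon-source sensing by spores, varied most among the subunits. It had 49.8, 74.8 and 73.5 CPM in mcrA-deleted replicates 1 to 3 and 40.8, 60.2 and 64.7 CPM in WT replicates 1 to 3. Replicate 1 was the lowest library of both genotypes, and the groups overlapped. For ganB the log2 fold change was 0.26 (SE 0.226, 95% interval -0.27 to 0.79; edgeR quasi-likelihood adjusted p = 0.41), so a rise of up to 1.73-fold lies within the interval.

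The gene for the Gβ subunit, sfaD (chromosome VIII, 4669166 to 4671479, minus strand), was the steadiest of the 9. Its levels were 216, 215 and 213 CPM in the mcrA-deleted libraries and 232, 240.0 and 236 CPM in the WT libraries. The SD was 0.693% of the mean in mcrA-deleted and 1.79% in WT libraries, against 41.4% and 13.2% for gprC. With 755 to 1452 counts a library, counting error alone exceeds both sfaD percentages, so its spread came out small partly by chance. The gprC libraries had 10 to 177 counts, where counting error is wider. The groups did not overlap, but the difference was small (log2 fold change -0.14, 95% interval -0.40 to 0.13; edgeR quasi-likelihood adjusted p = 0.394).

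The gene for its partner, the Gγ subunit gpgA (chromosome VI, 2948453 to 2949317, plus strand), had 116, 122 and 117 CPM in the mcrA-deleted libraries and 148, 144 and 164 CPM in the WT libraries. Every mcrA-deleted library lay below every WT library. The log2 fold change was -0.36 (SE 0.115, 95% interval -0.63 to -0.09), with an edgeR quasi-likelihood adjusted p = 0.0505, just outside the threshold. The DESeq2 Wald test put it inside (-0.36, adjusted p = 0.0436), and library size alone gave -0.18 (adjusted p = 0.307 in edgeR; adjusted p from 0.0436 to 0.307 over the 14 other settings).

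Levels were compared between the genes only per length, as CPM per kilobase of the counted feature. In the mcrA-deleted libraries the order was gprK (145 ± 6.81), gpgA (137 ± 4.02), fadA (97.4 ± 2.87), sfaD (92.7 ± 0.642), ganA (34.4 ± 3.38), ganB (33.4 ± 7.14), gprH (31.3 ± 6.66), gprD (10.9 ± 2.96) and gprC (3.29 ± 1.36 CPM per kilobase; SD, n = 3). The ranges over libraries overlapped between gprK and gpgA and among ganA, ganB and gprH, while gprD and gprC each stood apart from their neighbours. In the WT libraries the order was gpgA (176 ± 12.3), gprK (149 ± 16.3), sfaD (102 ± 1.83), fadA (91.9 ± 10.98), gprD (33.1 ± 5.18), ganB (27.9 ± 6.43), ganA (26.7 ± 2.66), gprC (22.7 ± 2.99) and gprH (7.31 ± 0.644 CPM per kilobase; SD, n = 3). There the neighbours from gprD to gprC overlapped, as did sfaD and fadA, and gprH stood alone at the bottom.

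**Figure D3:**
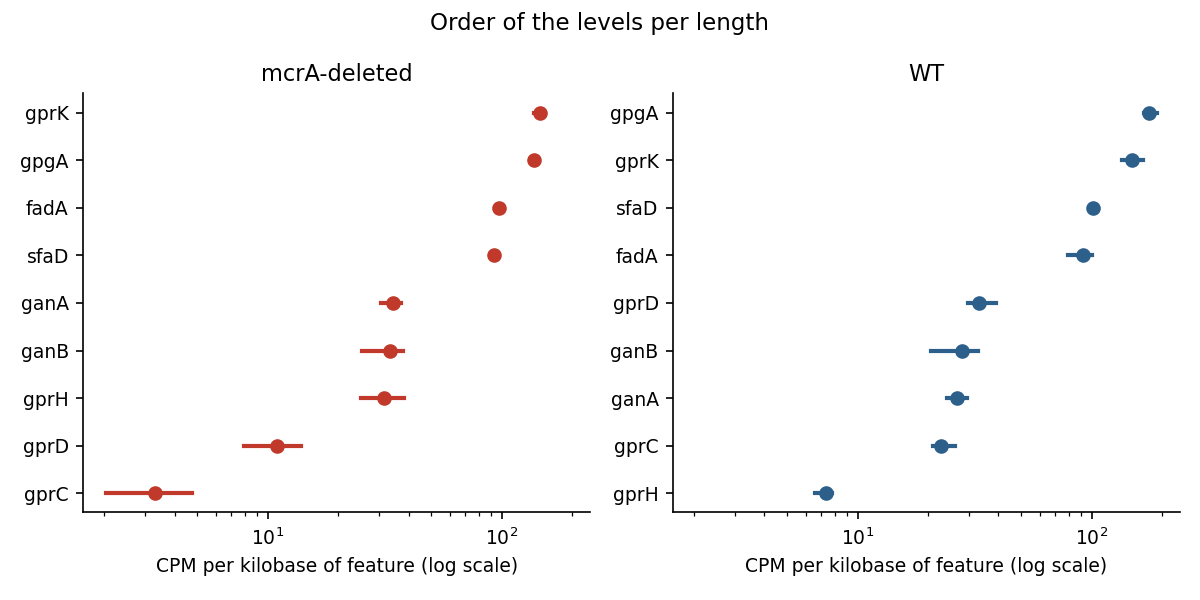
Level per length (x axis, CPM per kilobase of feature, log scale) of the 9 genes, ordered from high to low in mcrA-deleted (left) and WT (right) libraries; points are means of 3 libraries and bars run from the lowest to the highest library. The gene gprH is last in WT at 7.31 and among the Gα genes ganA and ganB in mcrA-deleted at 31.3, while gprC is last in mcrA-deleted at 3.29.

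The order depends on the length used. RefSeq gives shorter gene spans for ganA (1305 against 3240 bases in the files) and sfaD (1496 against 2314). With the RefSeq spans 6 of 9 genes kept their place in the mcrA-deleted and 5 of 9 in the WT order: gpgA, fadA and sfaD moved in mcrA-deleted, and in WT sfaD changed places with gprK and ganA with gprD. The order among gprC, gprD and gprH was the same with both lengths.

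Among gprC, gprD and gprH, the 3 receptors of lower level, gprH stood first in every mcrA-deleted and last in every WT library, while gprD stood above gprC in all 6. In the mcrA-deleted libraries gprH made up 70.0%, 66.4% and 69.4% of their summed level per kilobase in replicates 1 to 3, against 13.0%, 11.5% and 10.4% in the WT libraries. The share of gprD was 25.3%, 21.0% and 25.05% in mcrA-deleted and 51.7%, 51.8% and 53.6% in WT libraries. That of gprC was 4.70%, 12.6% and 5.58% in mcrA-deleted and 35.3%, 36.7% and 35.9% in WT libraries. In ratios, gprH stood at 2.77, 3.17 and 2.77 times the level of gprD in the mcrA-deleted libraries and at 0.252, 0.222 and 0.195 times in the WT libraries. The ratio of gprD to gprC, the pair that fell, was 5.39, 1.66 and 4.49 in the mcrA-deleted libraries and 1.46, 1.41 and 1.49 in the WT libraries. In mcrA-deleted libraries that ratio rests on as few as 10 gprC counts, in replicate 1.

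**Figure D4:**
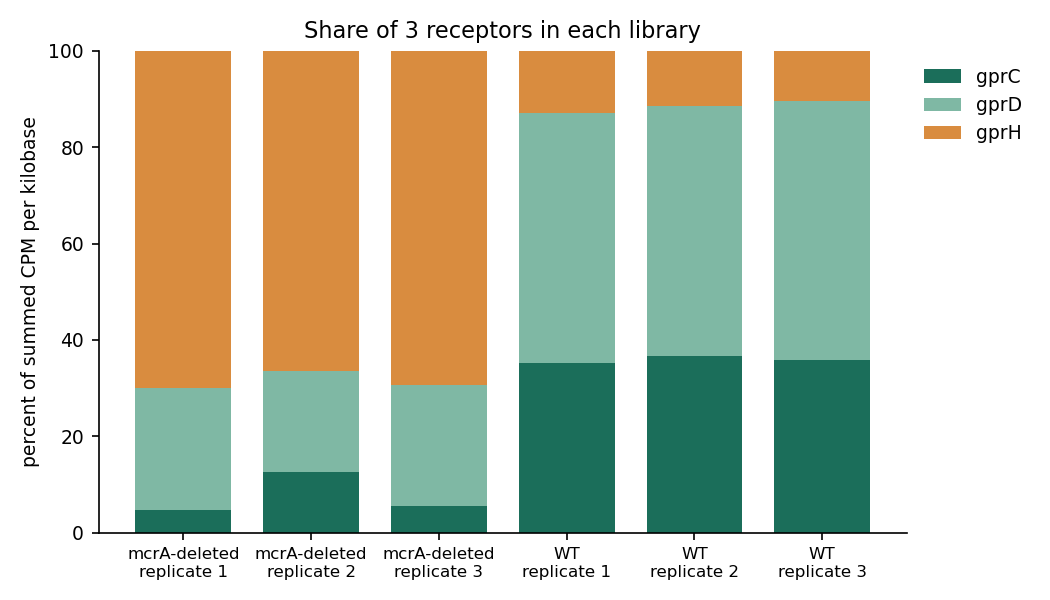
Share of gprC, gprD and gprH in their summed CPM per kilobase (y axis, percent) in each of the 3 mcrA-deleted and 3 WT libraries. The gprH segment takes 66.4% to 70.0% in the mcrA-deleted bars and 10.4% to 13.0% in the WT bars.

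With TMM scaling the summed level of the 3 did not overlap between the genotypes either. The sum of gprC, gprD and gprH was 43.6, 37.6 and 55.2 CPM per kilobase in mcrA-deleted and 59.6, 57.0 and 72.9 in WT libraries. With gprK, which held 71.4% to 80.0% of the receptor sum in mcrA-deleted and 66.5% to 73.6% in WT libraries, the 4 receptors summed to 188 to 193 CPM per kilobase in mcrA-deleted and 192 to 226 in WT libraries. As a share of all 9 genes this was 32.6% ± 0.575 in mcrA-deleted and 33.3% ± 2.12 in WT libraries (SD, n = 3 each), and the ranges overlapped. The 5 subunits summed to 389 to 402 CPM per kilobase in mcrA-deleted and 416 to 431 in WT libraries. Sums and levels set across libraries depend on the scaling. With library size alone the log2 fold changes shift up by a median of 0.171, and that of sfaD then stands at 0.035. Under that scaling the sum of gprC, gprD and gprH and the sum of the 5 subunits overlap between the genotypes. The TMM factors were 1.04, 1.04 and 1.11 in mcrA-deleted replicates 1 to 3 and 0.969, 1.001 and 0.861 in WT replicates 1 to 3. They did not overlap between the genotypes.

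Within the G protein, fadA made up 56.2% to 61.4% of the summed Gα level per kilobase in mcrA-deleted and 57.2% to 69.2% in WT libraries. The shares of ganA (18.3% to 23.0% in mcrA-deleted, 16.6% to 19.3% in WT) and ganB (15.6% to 22.6% in mcrA-deleted, 14.2% to 23.5% in WT) also overlapped between the genotypes. The ratio of sfaD to gpgA was 0.695, 0.656 and 0.682 in the mcrA-deleted libraries and 0.586, 0.622 and 0.536 in the WT libraries. The summed Gα level was 1.73, 1.80 and 1.81 times that of sfaD in mcrA-deleted and 1.45, 1.503 and 1.36 times in WT libraries. Neither ratio overlapped between the genotypes; these are descriptions of 3 against 3 libraries, and their absolute size depends on the feature lengths.

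The 9 genes lie on 4 chromosomes, with fadA, ganB and sfaD on VIII, gprD, ganA and gpgA on VI, gprC and gprH on II and gprK on IV, and no pair of them is adjacent. Of the 18 features adjacent to them, 11 could be tested. Of these 11, edgeR's quasi-likelihood test called 3 higher and 0 lower. Another 2 were lower at an unadjusted p under 0.05, and DESeq2's Wald test called 0 lower. By comparison, edgeR called 29.8% of all tested features, 16.1% higher and 13.7% lower. At the called receptor genes, the 3 testable adjacent features were not called: AN10457 beside gprC (0.17, SE 0.114), and AN8261 (0.19, SE 0.210) and AN8263 (0.14, SE 0.157) on either side of gprH. AN8263 starts 169 bases after the end of gprH. Both features beside gprD had too few counts for a test. AN3386, 121 bases away on the minus strand, had 17 counts over the mcrA-deleted and 1 over the WT libraries.

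The 3 adjacent features that rose lay beside genes that were not called. AN1015, with the RefSeq symbol glpV, 615 bases from ganB, rose by 1.62 (SE 0.355; edgeR quasi-likelihood adjusted p = 0.0143), AN7794 beside gprK by 0.94 (SE 0.215) and AN3091 beside ganA by 0.70 (SE 0.127). Without WT replicate 2 the call of AN1015 was lost, and that of AN7794 without mcrA-deleted replicate 2 or 3. Without the pair that stands apart AN1015 stood at 2.26 (edgeR quasi-likelihood adjusted p = 0.000641).

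**Figure D5:**
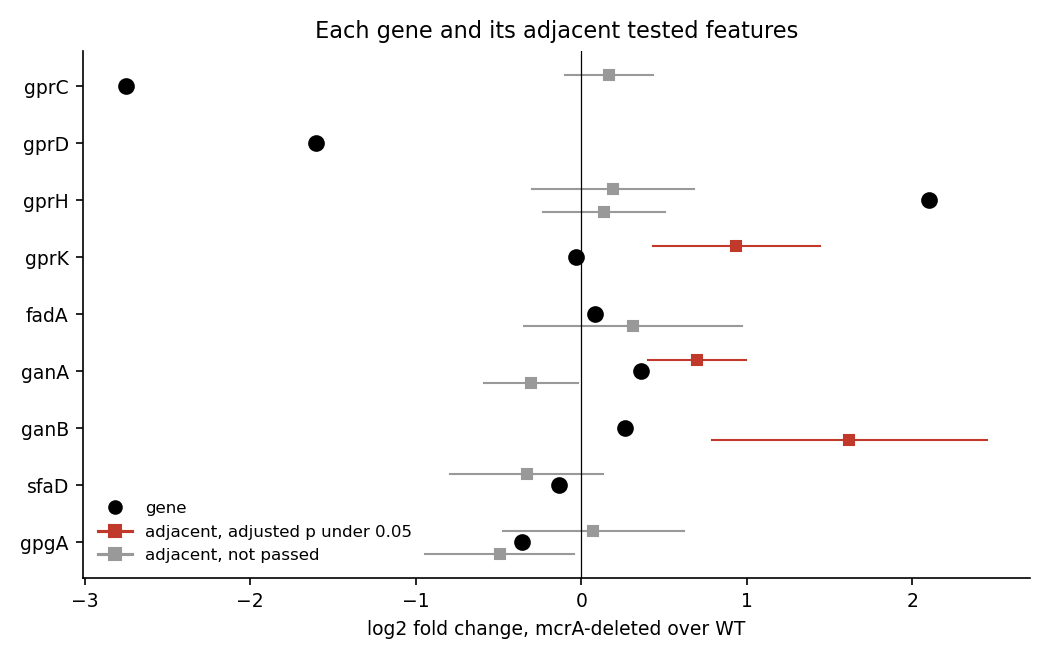
Log2 fold change of mcrA-deleted over WT (x axis) for each of the 9 genes (black circles) and its adjacent tested features (squares with 95% intervals, the feature before the gene drawn above it). The squares beside gprC and gprH lie near 0, and the 3 called squares (red) lie beside gprK, ganA and ganB.

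Other receptor genes were examined from a list of 12 loci written from background knowledge, of which RefSeq gives a symbol to only 4: preA and preB, the pheromone receptors, gprM, and nopA, an opsin. Of the 12, 11 could be tested, 1 rose, 1 fell and 9 did not pass. Over all tested features 16.1% were called higher and 13.7% lower. None of the 4 with a symbol passed: gprM had 59.5 CPM in mcrA-deleted and 52.8 CPM in WT libraries (log2 fold change 0.17), nopA 1374 and 1907 CPM (-0.47), preB 15.5 and 11.7 CPM (0.41) and preA 5.80 and 3.48 CPM (0.74). The 2 loci that passed have no symbol in the sources used here and are given by number only. AN5508 rose, with 15, 29 and 36 counts in mcrA-deleted and 4, 5 and 5 counts in WT libraries (2.57, SE 0.377; edgeR quasi-likelihood adjusted p = 0.00361). AN12206 fell, with 21, 50 and 34 counts in mcrA-deleted and 74, 85 and 76 counts in WT libraries (-1.08, SE 0.246; edgeR quasi-likelihood adjusted p = 0.0165). Its call was lost without mcrA-deleted replicate 3 (edgeR quasi-likelihood adjusted p = 0.0551) and without the pair of libraries that stand apart (-0.85, adjusted p = 0.0516; 0.00443 to 0.0551 over the 14 other settings), while AN5508 then stood at 2.91. AN12206 ends 4079 bases before gprH, with 2 features between them, so a called fall and a called rise lay close together there.

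In edgeR's quasi-likelihood test 29.8% of all tested features were called. Of 7 genes for RGS proteins and other partners of G proteins, all tested, 0 rose and 0 fell in that test. Of these 7 genes, 1 had an unadjusted p under 0.05, and DESeq2 called 0. They include flbA, the RGS protein that acts on FadA (53.1 CPM in mcrA-deleted and 59.5 CPM in WT libraries; log2 fold change -0.16, SE 0.275), and the 2 of highest level, cpcB, a Gβ-like protein (1216 and 1478 CPM; -0.28, SE 0.229), and rgsA (707 and 522 CPM; 0.44, SE 0.229). AN0082, 380 bases from sfaD, belongs to this list and stood at -0.33 (SE 0.197).

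Of 5 loci listed for the cAMP-dependent protein kinase and Ras branches, 1 rose and 4 did not pass. The share called over all tested features was 29.8%. In edgeR 3 of the 5 had an unadjusted p under 0.05, against 3385 of all 7852 tested features. DESeq2's Wald test called 1 of the 5. The locus that rose, AN5674, has no symbol in RefSeq, so its place in this list rests on background knowledge and is uncertain. It rose by 0.81 (SE 0.193, edgeR quasi-likelihood adjusted p = 0.0191). Its levels were 46.6, 43.7 and 51.4 CPM in mcrA-deleted and 27.5, 32.6 and 20.3 CPM in WT libraries. Its call was lost without mcrA-deleted replicate 3 or WT replicate 1, and it stood at 0.66 without the pair that stands apart. The kinase gene AN6305, pkaC in RefSeq, had 135 CPM in mcrA-deleted and 96.7 CPM in WT libraries (0.48, edgeR quasi-likelihood adjusted p = 0.0628). AN4987, with no symbol in RefSeq, stood at 0.43 (edgeR quasi-likelihood adjusted p = 0.0933) and rasA at -0.22.

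Of 9 loci listed as downstream or carbon genes, 8 could be tested, 2 rose, 1 fell and 5 did not pass. The share called over all tested features was 29.8%. In edgeR 4 of the 8 had an unadjusted p under 0.05, against 3385 of all 7852 tested features. DESeq2's Wald test called 4 of the 8, against 2539 of the 7852. The conidiation regulator brlA, which FadA signalling restrains, had 12, 28 and 56 counts in mcrA-deleted and 1, 2 and 2 counts in WT libraries (log2 fold change 4.24, SE 0.647; edgeR quasi-likelihood adjusted p = 0.00409). The carbon repressor creA had 347 ± 18.5 CPM in mcrA-deleted and 247 ± 35.8 CPM in WT libraries (SD, n = 3 each; 0.49, edgeR quasi-likelihood adjusted p = 0.0457). It passed in 7 of the 14 other settings (adjusted p from 0.0138 to 0.145, edgeR and DESeq2) and lost its call without WT replicate 1 or 3, without any mcrA-deleted replicate, without a count filter and without the pair that stands apart (0.47). AN8689, with no RefSeq match, fell (412 ± 93.7 CPM in mcrA-deleted and 1171 ± 276 CPM in WT libraries, SD, n = 3 each; -1.51, edgeR quasi-likelihood adjusted p = 0.00585). It lies on chromosome III (3118323 to 3120440), as does AN8694 (3100552 to 3102696). Without the pair that stands apart, brlA stood at 4.79 and AN8689 at -1.53, and without mcrA-deleted replicate 3, the library with the most brlA counts, brlA stood at 3.63 (edgeR quasi-likelihood adjusted p = 0.00905). The kinase gene sakA did not pass (-0.16, SE 0.195). AN5860, with no symbol in RefSeq, had the largest change of the 5 that did not pass. It had 1645 CPM in mcrA-deleted and 3305 CPM in WT libraries (-1.01, SE 0.352, edgeR quasi-likelihood adjusted p = 0.067).

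Markers of spore-forming cells were present at low level. The summed level of 8 conidiation genes was 30.8 to 45.9 CPM in mcrA-deleted and 18.7 to 28.1 CPM in WT libraries. Of the 5 that could be tested, brlA and the pigment gene AN8209 (1.27, edgeR quasi-likelihood adjusted p = 0.0394) rose and 3 did not pass, while the spore-wall gene dewA had at most 1 count in any library. The call of AN8209 was lost when mcrA-deleted replicate 1, mcrA-deleted replicate 3, WT replicate 2 or WT replicate 3 was left out alone. It was also lost without the pair that stands apart (1.03, edgeR quasi-likelihood adjusted p = 0.122). The summed level of 3 genes of growing hyphae, gpdA, the actin gene and AN1182, was 6770 to 10101 CPM in mcrA-deleted and 13178 to 17749 CPM in WT libraries, with 0 of 3 called in edgeR (2 had an unadjusted p under 0.05, and DESeq2 called 2). Within the conidiation list yA, a pigment gene, stood at -0.55 (SE 0.297) and did not pass, and gpdA made up most of the hyphal sum. Neither sum overlapped between the genotypes, though the actin gene alone did (log2 fold change -0.21). Over all tested features 29.8% were called and 48.9% did not overlap between the genotypes. The part of these markers in the receptor changes was not tested. In bulk RNA a change in the number of cells of a type and a change in RNA per cell cannot be told apart.

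The tested features whose profile over the 6 libraries was nearest to that of gprC were AN2844, AN5339 and AN2578, with root-mean-square differences of 0.254, 0.274 and 0.312 in log2 CPM after each was centred on its own mean. The first 2 were low in counts, and AN2578 stood at 89.3 CPM in mcrA-deleted and 675 CPM in WT libraries (log2 fold change -2.92). Among the subunits the absolute change of ganA (0.36) was barely above that of gpgA (-0.36), and it was below without a count filter, without mcrA-deleted replicate 1 or 2 and without WT replicate 1. The features nearest to ganA were AN2296, AN6271 and AN3693, at 0.0389, 0.0582 and 0.0587. Their log2 fold changes were 0.35, 0.32 and 0.41, and RefSeq has no symbol for any of the 6.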

How the data were processed

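The files hold raw counts per feature and library, deposited by the authors without normalization, per the file headers. CASAVA and HISAT (version 1) are named per the submitters' processing notes. As to the counting tool, strand setting, handling of multiply mapped reads and annotation version, these were not given in the sources used here. Coordinates follow the files, which name their chromosomes after A. nidulans FGSC A4.

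The counts were fitted with edgeR 4.0.16 in R 4.3.3: filterByExpr defaults (minimum count 10), which kept 7852 of 10983 features and left out 3131, TMM scaling, and the two-sided quasi-likelihood test with genotype as the only term. Benjamini-Hochberg adjustment ran over all tested features, with a threshold of 0.05. Standard errors were obtained as the fold change divided by the root of F, and 95% intervals from the t quantile at the fit's total degrees of freedom (7.42). Alternatives included DESeq2 1.42.0. A chi-square test between replicates of a group gave 9.97 to 54.1 per degree of freedom, so no pair agreed within counting noise as 1 library deposited more than once would; the test does not tell separate cultures from separate preparations. Total counts of 3374534 to 6051839 set the precision, and intervals do not cover amplification, since reads carried no molecular identifiers.

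The genes named are the 9 members, mcrA, called genes of the listed loci (or the 2 of highest level where none passed), adjacent features, and the 3 features nearest in profile to the receptor and the subunit of largest change. AN0082, AN4987, AN5860, AN6305, flbA, gprM, nopA, preA, preB, rasA, sakA, the marker genes and AN3386 were added after their values were seen. The members and lists were chosen with earlier results of these data known. RefSeq (assembly ASM1142v1) was used for symbols and, as an alternative, gene spans; its coordinates were not used.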

Additional observations from a re-analysis of the deposited data

How the results depend on the processing

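Over 14 other settings, the calls of gprC, gprD and gprH held in each. The count called lower was 2 except with the DESeq2 Wald test, where gpgA joined (-0.36, adjusted p = 0.0436) and it was 3, and the count called higher was 1 except with library size alone, where ganA joined and it was 2. Under that scaling log2 fold changes shifted up by a median of 0.171, gprK stood at 0.14, ganA at 0.53 (adjusted p = 0.033, edgeR), sfaD at 0.035, and 639 features were lower in place of 1078, against 1660 higher in place of 1265, a larger share of rises. The sign of gprK also turned with a mean count of at least 50 (0.0079) and, over the fits that left out 1 library, it lay between -0.10 and 0.049. That of fadA lay between -0.0099 and 0.14 over those fits and was -0.021 with both WT replicate 3 and mcrA-deleted replicate 1 left out, a setting chosen after seeing the data. None of these values of gprK, sfaD and fadA passed. Leaving out 1 library gave 758 to 1496 features higher (lowest without WT replicate 2) and 618 to 1171 lower (620 without WT replicate 2, 686 without WT replicate 1, 618 and 651 without mcrA-deleted replicates 2 and 3); in these fits the receptor share lay between 32.4% and 32.9% in mcrA-deleted and 32.3% and 34.4% in WT libraries. Without division by length it was 34.6% in mcrA-deleted and 36.3% in WT libraries. With RefSeq spans 6 and 5 of 9 genes kept their place in the mcrA-deleted and WT orders. The replicate block, which takes the replicate number of the labels as a term, gave -2.78 for gprC, -1.63 for gprD and 2.08 for gprH and changed no call of the 9 genes; 1333 features were higher and 1170 lower. Deviations of same-numbered libraries correlated at 0.263, -0.0757 and 0.168, and those of differently numbered libraries at -0.264 to 0.129. These values do not settle whether the numbers pair the samples. The main fit left the numbers out because the labels state no pairing. The causes of these shifts were not tested. Depth limits gprC most, with 10 counts in its lowest library.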
